A study of Mus musculus with 5 samples.

Results

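The genes described here encode 9 chemokine ligands: Ppbp, Cxcl1, Cxcl2, Cxcl5, Cxcl10, Cxcl16, Ccl2, Ccl20 and Cx3cl1. They were taken by name from the chemokine family, except Ppbp, which was chosen by its RNA counts in these libraries, being higher after Mef2d targeting, so its values are given as a description with no test. Of the 9, 8 were among the 12934 genes with deposited counts, and Ccl20 (ENSMUSG00000026166.14) was not listed. The cells were EpH4 cells, a mouse mammary epithelial cell line that arose by spontaneous immortalization. All cells carried Cas9 from a lentivirus selected with blasticidin, and then either a control sgRNA (sgControl, 3 libraries) or an sgRNA against Mef2d (sgMef2d, 2 libraries) from a lentivirus selected with puromycin. The cells are described as stable clones, and neither the number of clones behind each library nor the sgRNA in each sgMef2d library is given in the sources used here. The methods state in general that experiments were repeated independently, but do not say for these RNA libraries that each came from a separate culture, so the p-values measure only the spread between these libraries, which may be technical.

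Poly(A) RNA was sequenced from strand-marked libraries, and the counts over the listed genes summed to between 13601145 and 20498563 per library. Values are given in CPM, counts scaled to a fixed library total after TMM normalization, and 3 counts, taken as the limit of detection, correspond to between 0.146 and 0.220 CPM. Mef2d itself was at 64.2, 76.9 and 71.4 CPM in the sgControl libraries and 64.2 and 65.8 CPM in the sgMef2d libraries, its log2 fold change being -0.12 (edgeR's quasi-likelihood test, adjusted p = 0.400), which became -0.19 with an adjusted p of 0.00550 without sgControl replicate 1 and -0.06 with an adjusted p of 0.770 without sgControl replicate 2. In the fit without sgControl replicate 1, 29.4% of all genes were called, against 7.95% with all 5 libraries. The Mef2d RNA level overlapped between the groups and so does not check the labels. sgControl replicate 1 stood apart from the other controls: the chi-square per degree of freedom of its counts against replicates 2 and 3 was 10.3 and 13.3, as against 1.98 between replicates 2 and 3 and 2.02 between the sgMef2d libraries. Of 10 epithelial markers, 9 were listed, with a summed level of 4124 to 4329 CPM in sgControl and 3934 to 4101 CPM in sgMef2d. Keratins held most of this sum, Krt7 alone having a mean of 1589 CPM in sgControl and 1429 CPM in sgMef2d. The log2 fold change was above 0 for 6 of the 9, with a median of 0.07. Both sgMef2d libraries lay above every control for 4 of the 9 and below for 2, beside 20.6% and 20.5% of all genes tested. Of the 9, Krt18 was called lower (-0.26, adjusted p = 0.0207) and Cldn4 higher (0.26, adjusted p = 0.0407), and both calls were lost without sgControl replicate 2 (0.0647 and 0.135) or either sgMef2d library (0.199 to 0.335), that of Cldn4 also without sgControl replicate 3 (0.112). None of 10 lymphocyte markers and none of 10 endothelial markers was listed, and Ptprc, the pan-leukocyte marker, was not listed either.

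Chemokines are small secreted proteins that bind G protein-coupled receptors and draw leukocytes along a concentration gradient. They are named after the spacing of their first cysteines (CXC, CC or CX3C). The CXC ligands that carry a Glu-Leu-Arg motif, such as those encoded by Cxcl1, Cxcl2, Cxcl5 and Ppbp, act mainly on neutrophils through CXCR2. Cxcl10 encodes an interferon-inducible ligand of CXCR3 on activated T cells, and Ccl2 and Ccl20 encode ligands of CCR2 on monocytes and CCR6 on lymphocytes and dendritic cells. Cxcl16 and Cx3cl1 encode chemokines that are made as transmembrane proteins and released by the proteases ADAM10 and ADAM17. In epithelial cells, many of these genes are induced by NF-kB downstream of cytokine and Toll-like receptors, and their mRNAs are short-lived.

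The sequences upstream of 4 of the genes are shown because these genes lie on chromosome 5, 3 of them in a single cluster, and because their RNA levels were higher in both sgMef2d libraries than in every sgControl library. Each is the stretch of 250 bases before the start site from RefSeq (GRCm38.p6), written 5′ to 3′ along the gene. Capitals mark matches, on either strand, to the NF-kB consensus, to TATAAA or, in Cxcl10 alone, also to a core of the interferon-stimulated response element (GAAA, any 2 bases, GAAA).
Ppbp, chr5:90768268-90768517, plus strand: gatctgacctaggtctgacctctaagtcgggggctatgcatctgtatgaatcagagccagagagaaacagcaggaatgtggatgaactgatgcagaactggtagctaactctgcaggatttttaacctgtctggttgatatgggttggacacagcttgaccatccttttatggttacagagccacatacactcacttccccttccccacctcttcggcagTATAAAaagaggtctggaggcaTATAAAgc
Cxcl1, chr5:90890995-90891244, plus strand: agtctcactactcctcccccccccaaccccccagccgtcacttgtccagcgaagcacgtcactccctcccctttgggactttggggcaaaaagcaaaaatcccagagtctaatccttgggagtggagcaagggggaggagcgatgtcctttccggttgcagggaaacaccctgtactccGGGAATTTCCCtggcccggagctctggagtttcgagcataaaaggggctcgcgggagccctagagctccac
Cxcl2, chr5:90903649-90903898, plus strand: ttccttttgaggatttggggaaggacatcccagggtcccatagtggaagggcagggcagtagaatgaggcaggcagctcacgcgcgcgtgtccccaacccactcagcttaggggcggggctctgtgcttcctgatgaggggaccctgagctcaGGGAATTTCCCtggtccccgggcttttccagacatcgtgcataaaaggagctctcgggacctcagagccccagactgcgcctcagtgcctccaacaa
Cxcl10, chr5:92348890-92349139, minus strand: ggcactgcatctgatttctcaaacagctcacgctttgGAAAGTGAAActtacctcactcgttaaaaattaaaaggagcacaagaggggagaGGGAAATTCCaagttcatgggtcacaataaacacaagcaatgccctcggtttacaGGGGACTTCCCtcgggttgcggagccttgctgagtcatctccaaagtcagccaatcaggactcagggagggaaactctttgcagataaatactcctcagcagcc

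These sequences differed in the matches they hold. Ppbp had TATAAA at -30 to -25 and again at -8 to -3, counted from the start site, and no match to the NF-kB consensus. Cxcl1 and Cxcl2 each had an NF-kB match that reads on both strands in overlapping frames, at -71 to -61 in Cxcl1 and at -97 to -87 in Cxcl2. Cxcl10 had NF-kB matches at -159 to -150 and at -104 to -94, the latter from overlapping frames, and the interferon core at -213 to -204. Windows that also take in the 50 bases after the start were held for 6 of the 9 genes. Of the other two of these 6, Ccl20 had an NF-kB match at -80 to -71 and Cx3cl1 had TATAAA at -6 to -1. The consensus of the MEF2 factors had 0 matches in the 6 windows. Among all 32851 windows of this length, 8.46% held the NF-kB consensus, 13.6% TATAAA, 3.44% the interferon core and 3.19% the MEF2 consensus. A match describes the letters only. Cxcl5, Cxcl16 and Ccl2 had no entry in the promoter table.

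Mef2d targeting was compared with the control sgRNA to ask which chemokine RNAs differ in these epithelial cells. Among the neutrophil-attracting CXC ligands, Cxcl5 and Cxcl2 rose in sgMef2d, and Cxcl1 lay above the controls in both sgMef2d libraries but did not pass the threshold. Ppbp, chosen for being higher, is described apart from these. The membrane-anchored Cxcl16 and Cx3cl1 and the monocyte ligand Ccl2 did not pass it either. Of the 7 listed genes other than Ppbp, 2 rose and 0 fell at an adjusted p below 0.05 (edgeR's quasi-likelihood test over all 12483 genes tested), where 7.95% of all genes tested were called, 3.67% as higher and 4.28% as lower. The 7 had a median log2 fold change of 0.58, with 4 of 7 above 0, beside 0.0031 over all genes tested. The sgMef2d libraries lay above all sgControl libraries for Ppbp, Cxcl1, Cxcl2, Cxcl5 and Cxcl10 and below them for Cxcl16. Over all genes tested, the groups did not overlap in 41.1%, in 20.6% with sgMef2d higher and in 20.5% with it lower. In bulk RNA, fewer cells that express a gene and less RNA per cell cannot be told apart.

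**Figure D1:**
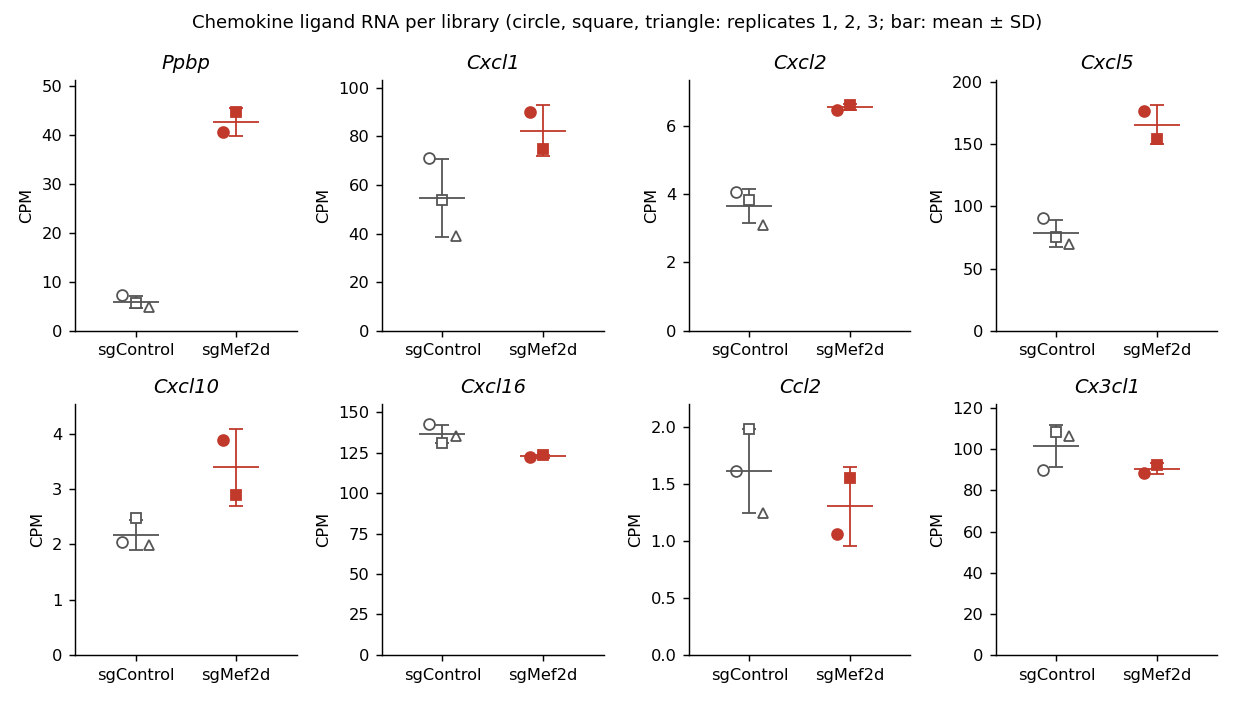
RNA level in CPM (vertical axes, each starting at 0) of the 8 listed chemokine ligand genes in each sgControl (open, n = 3) and sgMef2d (filled, n = 2) library, with a bar for the mean ± SD. For Ppbp the sgMef2d libraries sit at 40.6 and 44.6 CPM and the sgControl libraries between 4.84 and 7.17 CPM, while for Ccl2 and Cx3cl1 the groups overlap.

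Ppbp encodes pro-platelet basic protein, which is stored in platelet granules and trimmed to the neutrophil chemokine CXCL7. The gene (ENSMUSG00000029372.7) lies on the plus strand of chromosome 5 of GRCm38, from 90768518 to 90770063. It had 7.17, 5.60 and 4.84 CPM in sgControl replicates 1, 2 and 3, from 147, 79 and 66 counts, and 40.6 and 44.6 CPM in sgMef2d replicates 1 and 2, from 690 and 662 counts. The lowest sgMef2d library was thus far above the highest sgControl library, while the controls themselves differed by a ratio of up to 1.48. The mean was 5.87 ± 1.19 CPM in sgControl (SD, n = 3) and 42.6 ± 2.81 CPM in sgMef2d (SD, n = 2). The difference on the log2 scale was 2.82, or 7.08-fold, and it stayed between 2.71 and 3.02 when any 1 library was left out or another normalization, filter or tool was used. Since the RNA of platelets and their precursors is the usual source of Ppbp, platelet markers were looked up, and of those reported here only Itga2b was listed. Pf4, the neighbour of Ppbp and also a platelet granule chemokine, was not listed, nor were Gp9, Gp1ba, Gp1bb, Gp5, Gp6, Tubb1, Treml1, Nfe2 and Clec1b. Itga2b was at 3.02, 1.70 and 2.64 CPM in sgControl and 2.18 and 1.14 CPM in sgMef2d, with overlapping groups (log2 fold change -0.57, adjusted p = 0.336).

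Cxcl5 encodes LIX, an epithelial CXCR2 ligand. The gene (ENSMUSG00000029371.7, chromosome 5, 90759360 to 90761624, plus strand) ends 6.894 kb before Ppbp starts. It had 90.8, 75.2 and 69.9 CPM in sgControl and 177 and 155 CPM in sgMef2d. Both sgMef2d libraries exceeded every control, at a mean of 166 ± 15.7 CPM (SD, n = 2) against 78.6 ± 10.9 CPM (SD, n = 3). Cxcl5 thus rose 2.10-fold, or by 1.07 ± 0.099 on the log2 scale (standard error; edgeR's quasi-likelihood test, adjusted p = 8.32e-05). Its call held when each library was left out in turn, with log2 fold changes of 0.97 to 1.19 and an adjusted p of at most 0.00358.

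Cxcl2 encodes MIP-2 (ENSMUSG00000058427.10, chromosome 5, 90903871 to 90905938, plus strand), a neutrophil attractant that many cells induce within hours of an inflammatory signal. Its level was low, at 4.05, 3.83 and 3.08 CPM in sgControl and 6.47 and 6.60 CPM in sgMef2d. The sgMef2d libraries were nearly equal and above every control, and Cxcl2 rose by 0.82 ± 0.17 on the log2 scale (standard error; adjusted p = 0.0134). The fold was as large without sgMef2d replicate 1 (0.83) or replicate 2 (0.80), but the call was lost, with an adjusted p of 0.121 and 0.133, as the share of all genes called went to 1.88% and 1.83%. Of the 50-base stretches of its transcripts, 5.84% also occur in another gene, Cxcl3. As Cxcl3 had 607 to 1888 counts a library against 42 to 110 for Cxcl2, reads from these stretches could weigh more in the Cxcl2 count than that share. Whether such reads were shared or dropped in counting is not stated, and their part in the Cxcl2 rise was not tested.

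Cxcl1, which encodes KC (ENSMUSG00000029380.11, chromosome 5, 90891241 to 90893115, plus strand), had the widest spread between control libraries of the 8 listed genes, as a ratio. It had 71.1, 53.9 and 38.9 CPM in sgControl, a ratio of 1.83 between the highest and the lowest, and 89.9 and 74.9 CPM in sgMef2d. The lower sgMef2d library was only just above sgControl replicate 1. The log2 fold change was 0.58 (95% interval 0.19 to 0.97) and did not pass the threshold (adjusted p = 0.0744). Without sgControl replicate 1 it was 0.83 with an adjusted p of 2.97e-19, while the share of all genes called grew to 29.4%, and without sgControl replicate 3, where 6.51% of genes were called, it was 0.39 with an adjusted p of 0.0719. With the replicate number as a block, on the 4 libraries with numbers 1 and 2, Cxcl1 passed at 0.40 (adjusted p = 0.000188), and 10.1% of genes were called. sgControl replicate 1 was the highest control library for Ppbp, Cxcl1, Cxcl2, Cxcl5 and Cxcl16.

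Cxcl10 (ENSMUSG00000034855.13) lies outside the cluster, on the minus strand of chromosome 5 from 92346638 to 92348889. It was at 2.05, 2.48 and 1.98 CPM in sgControl and 3.88 and 2.90 CPM in sgMef2d, from 27 to 66 counts per library. Both sgMef2d values were above the controls, but they differed from each other by more than the highest control and the lower sgMef2d library did. The log2 fold change was 0.66 (95% interval 0.15 to 1.17), which did not pass the threshold (adjusted p = 0.110) and was 0.42 without sgMef2d replicate 1 (adjusted p = 0.608). Art3, which overlaps Cxcl10 on the opposite strand, was not listed.

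Cxcl16 (ENSMUSG00000018920.11, chromosome 11, 70453983 to 70459984, minus strand) encodes a ligand of CXCR6 that also acts as a scavenger receptor. It was at 143, 131 and 135 CPM in sgControl and 122 and 123 CPM in sgMef2d. Every sgMef2d value was below the controls, by a small margin, and the log2 fold change of -0.15 (95% interval -0.29 to -0.02) did not pass the threshold (adjusted p = 0.153). Without sgControl replicate 1, where 29.4% of all genes were called, the difference was smaller, -0.12, and passed it (adjusted p = 0.0372). Zmynd15, which overlaps Cxcl16 on the opposite strand, was at 3.64 to 5.60 CPM (log2 fold change -0.47, adjusted p = 0.124), and whether the counting used the strand is not stated.

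Cx3cl1, or fractalkine (ENSMUSG00000031778.13, chromosome 8, 94772009 to 94782427, plus strand), binds CX3CR1 on monocytes, microglia and cytotoxic lymphocytes. It was at 89.8, 108 and 106 CPM in sgControl and 88.6 and 92.6 CPM in sgMef2d. sgControl replicate 1 lay between the sgMef2d libraries while the other controls were above both. The log2 fold change was -0.16 (95% interval -0.34 to 0.02, adjusted p = 0.271). Without sgControl replicate 1, where 29.4% of all genes were called, it was -0.25 and passed the threshold, with an adjusted p of 3.45e-05.

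Ccl2 (ENSMUSG00000035385.5, chromosome 11, 82035571 to 82037453, plus strand) had few counts. It was at 1.61, 1.99 and 1.25 CPM in sgControl and 1.06 and 1.55 CPM in sgMef2d, from 17 to 33 counts per library. The groups overlapped, and the log2 fold change of -0.32 had a 95% interval from -1.04 to 0.39 (adjusted p = 0.599). Its size depended on single libraries: it was -0.07 without sgMef2d replicate 1, -0.61 without sgMef2d replicate 2 and -0.18 without sgControl replicate 2, and did not pass in any of these.

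Leaving out each library in turn kept the direction of all 8 listed genes. Cxcl5 passed the threshold each time, and the calls of Cxcl1, Cxcl2, Cxcl16 and Cx3cl1 depended on which library was left out.

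**Figure D2:**
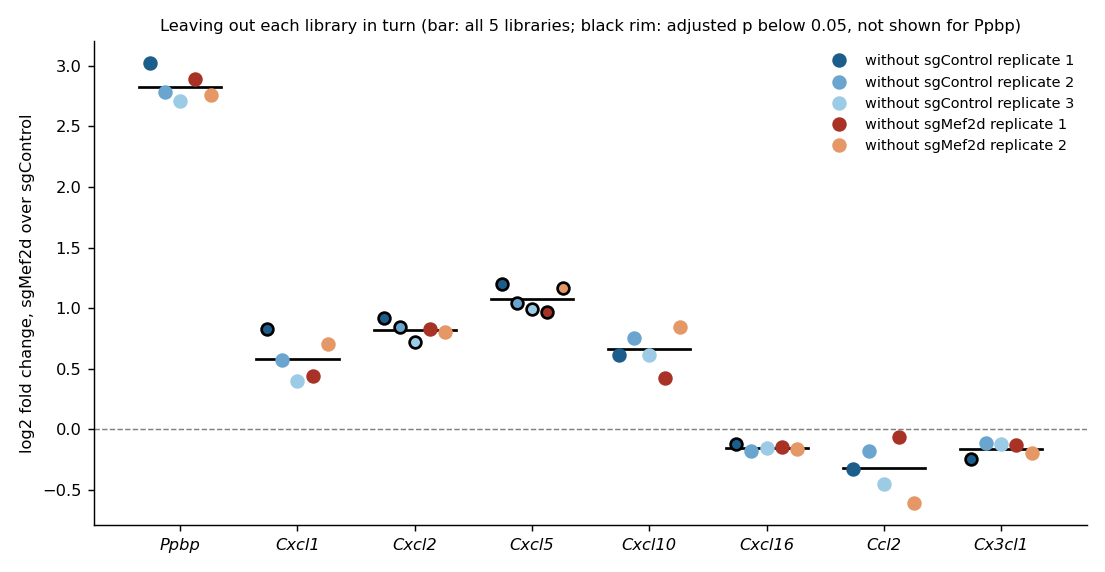
Log2 fold change of sgMef2d over sgControl (vertical axis) of the 8 listed ligand genes with all 5 libraries (bar) and with each library left out in turn (points), a black rim marking an adjusted p below 0.05, not shown for Ppbp. Cxcl5 has a rim at each of its 5 points, between 0.97 and 1.19, and Cxcl1, Cxcl16 and Cx3cl1 have one only without sgControl replicate 1.

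**Figure D3:**
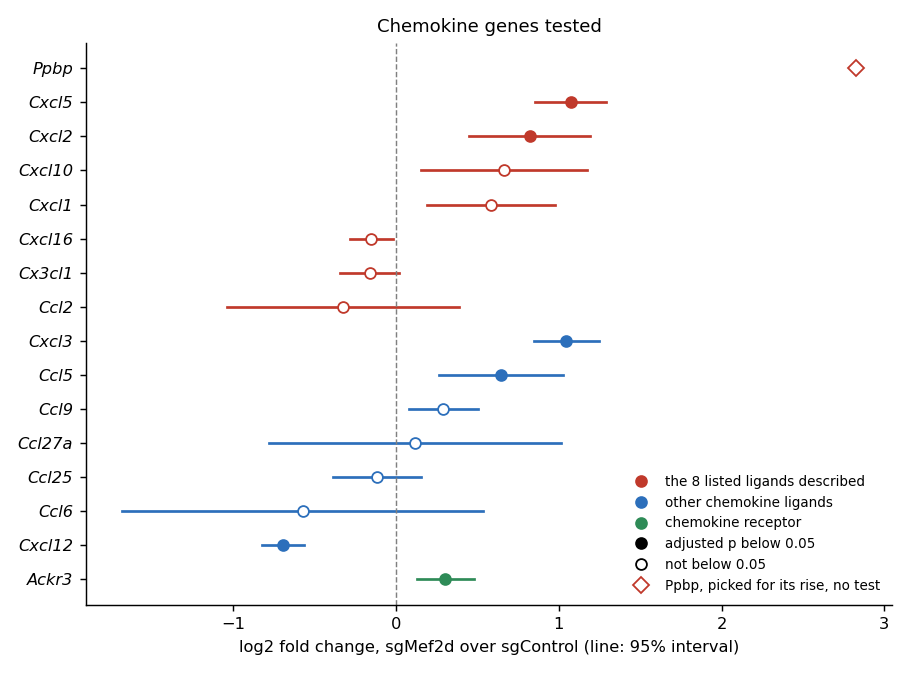
Log2 fold change of sgMef2d over sgControl (horizontal axis) with its 95% interval (line) for the 15 listed chemokine ligand genes and the listed receptor gene Ackr3. Filled circles mark an adjusted p below 0.05, and the open diamond marks Ppbp, which was picked for its rise and has no test. Cxcl5 and Cxcl3 lie near 1, and Cxcl12 lies at -0.70.

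Levels of different genes were compared per kilobase of merged exon, as TPM over the listed genes. In sgControl the order was Cxcl16 (158 ± 3.84 TPM), Cxcl5 (148 ± 15.3), Cxcl1 (102 ± 26.7), Cx3cl1 (90.8 ± 11.8), Ppbp (18.9 ± 3.18), Cxcl2 (6.17 ± 0.709), Ccl2 (4.96 ± 1.13) and Cxcl10 (3.38 ± 0.457; all SD, n = 3). In that order the libraries of Cxcl16 and Cxcl5, of Cxcl1 and Cx3cl1, and of Cxcl2 and Ccl2 overlapped, so these neighbours do not differ beyond their spread. In sgMef2d it was Cxcl5 (302 ± 28.7 TPM), Cxcl1 (149 ± 19.2), Cxcl16 (138 ± 0.953), Ppbp (133 ± 8.70), Cx3cl1 (78.1 ± 2.36), Cxcl2 (10.7 ± 0.138), Cxcl10 (5.10 ± 1.06) and Ccl2 (3.88 ± 1.03; all SD, n = 2). There the libraries of Cxcl1, Cxcl16 and Ppbp overlapped from one to the next, as did those of Cxcl10 and Ccl2. Among all listed genes, the level of Ppbp lay at percentile 47.1 in sgControl and 90.0 in sgMef2d, while Cxcl5 went from 91.0 to 96.2 and Cxcl10 from 18.9 to 24.1. With the length of the longest transcript in place of merged exons, Cx3cl1 came before Cxcl1 in sgControl, and Cxcl16 before Cxcl1 in sgMef2d, both pairs that overlap above, and the other ranks were as given. Ppbp thus moved from a middling level to that of Cxcl16 and Cxcl1.

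Ppbp, Cxcl5, Cxcl1 and Cxcl2 lie in 1 cluster of 7 CXC genes on chromosome 5 (90759360 to 90905938 of GRCm38, 146.579 kb), in the order Cxcl5, Ppbp, Pf4, Cxcl3, Cxcl15, Cxcl1, Cxcl2. Of the 7, 5 were listed, and Pf4 and Cxcl15, the latter known from lung epithelium, were not. Cxcl3, a CXCR2 ligand that is close in sequence to Cxcl2, was at 56.0, 54.8 and 44.5 CPM in sgControl and 111 and 103 CPM in sgMef2d. It rose by 1.05 ± 0.091 on the log2 scale (standard error; adjusted p = 4.97e-05), and its call held without each library in turn. The summed level of the 5 genes was 376, 325 and 277 TPM in the sgControl libraries and 730 and 667 TPM in the sgMef2d libraries. The sums did not overlap, and their mean was 2.14 times as high in sgMef2d (699 ± 44.6 TPM, SD, n = 2) as in sgControl (326 ± 49.4 TPM, SD, n = 3). This sum includes Ppbp, which was chosen for being higher. Without Ppbp it was 353, 307 and 261 TPM in sgControl and 603 and 528 TPM in sgMef2d, again with no overlap and with a ratio of the means of 1.84.

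**Figure D4:**
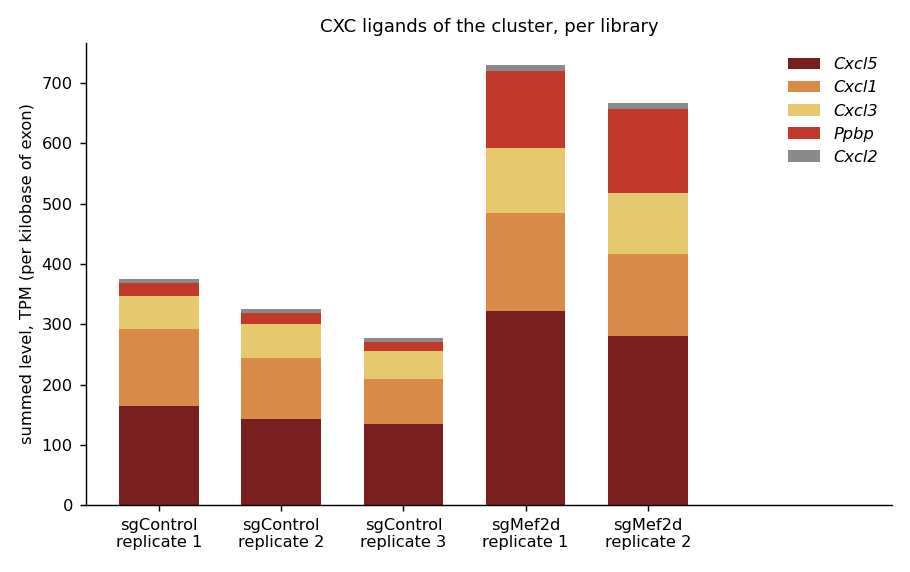
Summed level in TPM (vertical axis, from 0) of the 5 listed CXC genes of the cluster in each library, with each gene as a coloured part of the bar. The bars reach 277 to 376 TPM in sgControl and 667 and 730 TPM in sgMef2d, and the Ppbp part widens from at most 5.95% to at least 17.4% of the bar.

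Because Ppbp was chosen for its rise, its share of the summed TPM is a description of that choice. It made up 5.95%, 5.64% and 5.80% in sgControl and 17.4% and 20.9% in sgMef2d. Of the sum without Ppbp, Cxcl5 held 48.3% ± 2.99 (SD, n = 3) in sgControl and 53.4% ± 0.0466 (SD, n = 2) in sgMef2d. Cxcl1 held 32.7% ± 3.83 and 26.3% ± 0.924, Cxcl3 17.0% ± 1.49 and 18.4% ± 0.767, and Cxcl2 2.02% ± 0.137 and 1.90% ± 0.204 in the same order. The libraries of the groups did not overlap for Cxcl5 and Cxcl1 and did so for Cxcl3 and Cxcl2. Shares add up to a fixed total, so a larger share of 1 gene lowers the others by construction.

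Within 500 kb of the start of Ppbp the annotation holds 30 genes, 18 of them protein-coding, and 13 were listed and tested. Ppbp itself, on which the window is centred, was chosen for being higher and is not counted. Of the other 12, 5 were called higher (Cxcl5, Cxcl3, Cxcl2, Afp and Ereg) and 0 lower, beside 3.67% and 4.28% of all genes tested. Afp, the fetal serum protein alpha-fetoprotein, starts at -277.781 kb from Ppbp and was low, at 1.38 ± 0.160 CPM in sgControl (SD, n = 3) and 4.32 ± 0.456 CPM in sgMef2d (SD, n = 2; 1.61 ± 0.23 on the log2 scale, standard error; adjusted p = 0.00133). Ereg, which encodes the EGF receptor ligand epiregulin, starts at 306.104 kb and was at 26.8 to 29.4 CPM in sgControl and 44.3 and 40.8 CPM in sgMef2d (0.62 ± 0.080 on the log2 scale, adjusted p = 0.000874). The others did not pass the threshold: Cxcl1 (0.58), Rassf6 (-0.09), Mthfd2l (-0.09), and the EGF family genes Epgn (0.09) and Areg (0.04), as well as Ankrd17 (-0.04) and Gm9958 (-0.28), given as log2 fold changes. Without sgControl replicate 1, where 29.4% of all genes were called, Ankrd17 was at -0.13 and passed it (adjusted p = 0.00452). Leaving out 1 library put Gm9958 between -0.49 (without sgMef2d replicate 1) and -0.12 (without sgMef2d replicate 2), and Rassf6 between -0.14 (without sgControl replicate 3) and -0.05 (without sgControl replicate 2).

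**Figure D5:**
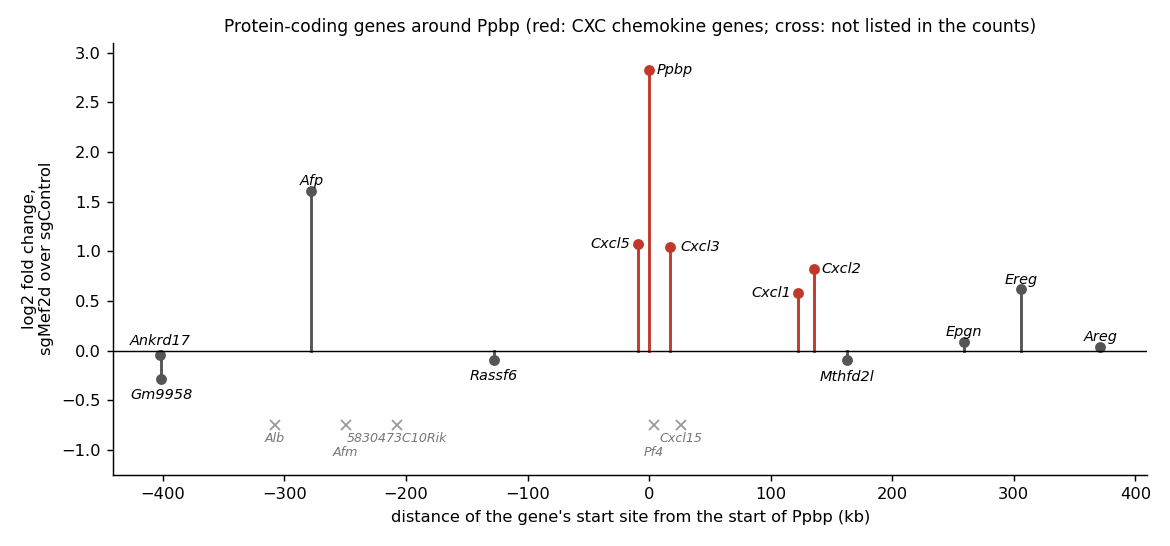
Log2 fold change of sgMef2d over sgControl (vertical axis) of the protein-coding genes around Ppbp against the distance of their start sites from that of Ppbp in kb (horizontal axis), with CXC chemokine genes in red and genes not listed as crosses. The 5 listed CXC genes all lie above 0, from 0.58 for Cxcl1 to 2.82 for Ppbp, and Rassf6 and Mthfd2l on either side of the cluster lie at -0.09.

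A further 31 chemokine ligand genes were looked up, and 7 were listed, of which 2 rose and 1 fell (3.67% and 4.28% over all genes). The median log2 fold change over the 7 was 0.11. Besides Cxcl3, Ccl5, which encodes the T cell and monocyte attractant RANTES, was at 3.22, 4.04 and 3.81 CPM in sgControl and 5.77 and 5.59 CPM in sgMef2d. It rose by 0.64 on the log2 scale (adjusted p = 0.0442), a call lost without any 1 of sgControl replicates 2 and 3 and sgMef2d replicates 1 and 2 (adjusted p = 0.0666, 0.0657, 0.283 and 0.253) and under DESeq2 (adjusted p = 0.148) or edgeR's legacy form (adjusted p = 0.0512). Cxcl12, the homeostatic ligand of CXCR4, was at 356, 367 and 358 CPM in sgControl and 230 and 215 CPM in sgMef2d. It fell by 0.70 on the log2 scale (standard error 0.058, adjusted p = 4.06e-05), opposite to the CXC genes of the cluster, and its call held without each library in turn. Ccl9 (0.29, adjusted p = 0.0937), Ccl25 (-0.12, adjusted p = 0.624), Ccl6 (-0.57, adjusted p = 0.541) and Ccl27a (0.11, adjusted p = 0.903) did not pass the threshold. Ccl9 passed it without sgControl replicate 1 (adjusted p = 0.0438), where 29.4% of all genes were called. Ccl25 was at -0.04 without sgControl replicate 3.

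Of 23 chemokine receptor genes, 1 was listed. This was Ackr3, which encodes a receptor that binds CXCL12 and removes it without G protein signalling. It was at 66.6, 58.6 and 55.7 CPM in sgControl and 75.1 and 73.9 CPM in sgMef2d. Its rise of 0.30 on the log2 scale (adjusted p = 0.0410) was a call lost without sgControl replicate 2 or 3 (adjusted p = 0.135 and 0.105) or sgMef2d replicate 1 or 2 (adjusted p = 0.294 and 0.281). Cxcr2, Cxcr3, Cxcr6, Ccr2, Ccr6 and Cx3cr1, the receptors of the ligands described above, were not listed, nor was Cxcr4.

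Genes that release, trim or anchor chemokines numbered 11, of which 10 were tested, and 1 rose and 1 fell, against 3.67% and 4.28% of all genes. Adam10 and Adam17, the proteases that shed CXCL16 and CX3CL1, had log2 fold changes of -0.0022 and 0.012 (adjusted p = 0.988 and 0.955). Mmp9, a gelatinase that can cleave several CXC ligands, fell by 1.05 on the log2 scale, to 6.64 ± 0.922 CPM (SD, n = 2) from 14.0 ± 1.92 in the controls (SD, n = 3; adjusted p = 0.00182). Mmp2, the other gelatinase, was at 0.958 ± 0.0589 CPM in sgControl and 1.93 ± 0.260 CPM in sgMef2d (log2 fold change 1.02, adjusted p = 0.0564), with both sgMef2d libraries above every control. Sdc1, the heparan sulfate proteoglycan syndecan-1 that holds chemokines at the cell surface, rose by 0.38 on the log2 scale, from 272 ± 7.35 to 354 ± 6.85 CPM (adjusted p = 0.00177), and lost its call without sgMef2d replicate 2 (adjusted p = 0.0738).

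All 14 genes of the NF-kB list were tested, and 1 rose and 2 fell, where 3.67% and 4.28% of all genes did, and the median log2 fold change was -0.11. Both sgMef2d libraries lay below every control for 9 of the 14 and above for 1, beside 20.5% and 20.6% of all genes tested. The subunit genes Rela (0.09), Nfkb1 (-0.15), Nfkb2 (-0.06) and Relb (-0.13) did not pass the threshold. Nfkb1, Nfkb2 and Relb were among the 9 that lay below, while Rela overlapped. Nfkbiz, which encodes a nuclear co-activator of NF-kB at inflammatory genes, rose by 0.38 on the log2 scale (adjusted p = 0.00750), and its call was lost without sgMef2d replicate 1 (adjusted p = 0.184). Tnfaip3, the gene of the feedback inhibitor A20, fell by 0.50 on the log2 scale, to 178 ± 12.7 CPM (SD, n = 2) from 251 ± 6.26 in the controls (SD, n = 3; adjusted p = 0.000797). Rel fell by 0.33 on the log2 scale (adjusted p = 0.0340), a call lost under DESeq2 (adjusted p = 0.0907) and without any library except sgControl replicate 1 (adjusted p = 0.0673 to 0.291).

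Among genes of interferon signalling, which bears on Cxcl10, Irf7 and Irf9 rose. Irf7 went from 4.43 ± 0.807 to 8.32 ± 0.0522 CPM (log2 fold change 0.91, adjusted p = 0.00616) and Irf9 from 14.6 ± 0.673 to 21.2 ± 1.27 CPM (0.55, adjusted p = 0.00588; SD, n = 3 and n = 2). Both encode transcription factors of the type I interferon response. Their calls were lost when sgMef2d replicate 1 was left out (adjusted p = 0.0825 and 0.122) and without sgMef2d replicate 2 (0.0743 and 0.0506). Irf1 (0.11), Irf3 (0.04) and Stat2 (0.06), given as log2 fold changes, did not pass the threshold. Of 6 genes that act on mRNA decay, 1 rose and 0 fell, beside 3.67% and 4.28% of all genes. This was Zfp36, which encodes tristetraprolin, a protein that speeds the decay of cytokine mRNAs, at a log2 fold change of 0.57 (adjusted p = 0.0192), which was 0.35 without sgMef2d replicate 1 and no longer passed (adjusted p = 0.303).

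Of 13 genes of cytokines that induce or accompany chemokines, 7 were listed and 6 tested, of which 1 rose and 1 fell, again beside 3.67% and 4.28% of all genes. Tnf was low, at 1.27, 0.851 and 0.879 CPM in sgControl and 3.12 and 2.15 CPM in sgMef2d, and rose by 1.36 on the log2 scale (adjusted p = 0.0194). Tslp, an epithelial alarmin, fell by 1.51 on the log2 scale, to 0.959 ± 0.308 CPM (SD, n = 2) from 2.80 ± 0.873 in the controls (SD, n = 3; adjusted p = 0.0241). The calls of both were lost without sgControl replicate 2 (adjusted p = 0.0550 and 0.0592) and without sgMef2d replicate 1 (0.285 and 0.105) or 2 (0.0546 and 0.254). Of 14 receptor and adaptor genes for these cytokines and for microbial ligands, 1 rose and 4 fell, beside the same 3.67% and 4.28% over all genes. The gene that rose was Il1r1, the interleukin-1 receptor, by 0.61 on the log2 scale (adjusted p = 0.00157; without sgMef2d replicate 2, 0.0528). Those that fell were Tnfrsf1b (-0.55), Tlr2 (-0.55), Tlr4 (-0.39) and Ifngr2 (-0.33), with adjusted p values of 0.00450, 0.00554, 0.0208 and 0.0231. Tnfrsf1b, Tlr2 and Tlr4 lost their calls without sgMef2d replicate 1 (adjusted p = 0.0594, 0.0942 and 0.172) or 2 (0.0836, 0.0574 and 0.213), and Ifngr2 without sgControl replicate 3 (0.0505) or sgMef2d replicate 1 (0.257) or 2 (0.160).

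Markers of cell types other than epithelium were also looked up. The fibroblast list had 6 of 10 genes listed and summed to 1415 to 1549 CPM in sgControl and 1088 to 1121 CPM in sgMef2d, with Dcn higher and Postn and Col1a2 lower among its calls and Lum, Fap, Thy1 and Dpt not listed. Col1a1 (0.39, adjusted p = 0.135) lay above the controls and Pdgfra (-0.25, adjusted p = 0.106) below them in both sgMef2d libraries without passing the threshold, and Pdgfrb (-0.05, adjusted p = 0.843) overlapped. Postn and Col1a2 kept their calls without each library in turn, while Dcn no longer passed without sgControl replicate 2 (0.0534, adjusted p) or sgMef2d replicate 1 or 2 (0.182 and 0.141). Of 10 neutrophil markers only S100a8, which epithelial cells also make, was listed, at 1.76 to 2.83 CPM in sgControl and 5.45 and 5.53 CPM in sgMef2d (log2 fold change 1.27, adjusted p = 0.00421; without sgMef2d replicate 1 or 2, 0.0655 and 0.0540). The macrophage list had 5 of 10 genes listed and summed to 39.3 to 45.7 CPM in sgControl and 34.6 to 36.1 CPM in sgMef2d, most of it from Cd14, which was called lower (log2 fold change -0.35, adjusted p = 0.0472), a call lost without sgControl replicate 2 (0.0516) or sgMef2d replicate 1 or 2 (0.208 and 0.372). Among the other 4, Cd68 (0.48, adjusted p = 0.488) and Lyz2 (1.48, adjusted p = 0.173) were higher in both sgMef2d libraries than in every control but did not pass the threshold, Mrc1 went from a mean of 0.226 to 0.627 CPM and was not tested, and Csf1r (0.15, adjusted p = 0.751) overlapped between the groups. The part of these cell types in the chemokine levels was not tested.

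The genes whose pattern over the 5 libraries was most like that of Ppbp, by Euclidean distance between log2 CPM profiles centred on the sgControl mean, were Ppfibp2 (0.48), Olfr810 (0.64), Serpinb2 (0.64), Grhl3 (0.71) and Sprr1a (0.71). Ppfibp2 was at 0 CPM in the 3 sgControl libraries and at 0.765 and 1.01 CPM in sgMef2d, and the other 4 had at most 0.496 CPM in any sgControl library, against 4.84 to 7.17 CPM for Ppbp. Grhl3 and Sprr1a encode a transcription factor and a cornified envelope protein of stratified epithelium. At such low levels the likeness depends on the constant added before the logarithm, and with a prior count of 0.5 in place of 2 only 1 of the 5 genes remained among the nearest. Among genes with at least 3 counts in every library, a condition set after seeing these values, the nearest were Grhl3 (0.71), Cck (0.72), Gabrp (0.73), Gm773 (0.86) and St6gal1 (0.94).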

How the data were processed

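The 5 libraries hold RNA from EpH4 cells with Cas9, 3 with the control sgRNA and 2 with an sgRNA to Mef2d. The authors ran FASTQC, aligned to GRCm38 with STAR2 and checked the alignments with RSeQC, and the deposited values are whole, unnormalized counts for each gene. The submitters' processing notes also name CASAVA, STAR and Subread. The methods give GENCODE version 22, while all 12934 deposited identifiers matched GENCODE M21, which gave symbols and coordinates, 12811 with the same version. Each listed gene reached at least 11 counts in a library, so low-count genes had been removed before deposit. The number of sample columns not used was 0, and 0 identifiers were blank.

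These counts were analysed in R 4.3.3 with edgeR 4.0.16: TMM scaling (factors 0.996 to 1.00), the expression filter by group (12483 genes left) and the bias-adjusted quasi-likelihood test, with Benjamini-Hochberg adjustment over all genes tested and a threshold of 0.05. The labelled sgRNA set each library's group. Library totals were 13601145 to 20498563 counts. Counting error is largest for genes with few counts, such as Ccl2 with 17 to 33 counts a library, and intervals do not cover PCR copies, which were not identified. TPM used merged exon lengths over the listed genes only. Log2 CPM used a prior count of 2.

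The chemokine genes and the lists were chosen with earlier results of these data known. Named genes were the 9 ligands, listed chemokine ligands and receptors past the threshold with up to 4 others of each list, up to 4 genes past the threshold with the smallest p from each further list, listed genes within 500 kb of Ppbp, the 5 genes most like Ppbp, and Mef2d. Ifngr2, Adam10, Adam17, Mmp2, NF-kB subunit genes, Irf1, Irf3, Stat2 and marker genes were named beyond this rule, after their values were seen. Motifs were searched on both strands of RefSeq promoter windows from 250 bases before to 50 after the start. Sequence that a gene shares with others was counted as 50-base words over GENCODE transcripts. Alternatives were RLE, upper quartile and total scaling, other filters, edgeR's legacy form, DESeq2 1.42.0, limma-voom from limma 3.58.1, a replicate block, a threshold of 0.01, other lengths, windows and prior counts, and leaving out each library. Protein sequences were not used here, and some genes of the lists are not reported here.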

Additional observations from a re-analysis of the deposited data

How the results depend on the processing

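Leaving out each library gave between 234 and 3639 genes past the threshold in place of 992: 3639 without sgControl replicate 1, 603 without replicate 2, and 238 and 234 without sgMef2d replicates 1 and 2. The latter leave a group with 1 library, which is assumed to vary like the others. Of the 7 ligands other than Ppbp, between 1 and 5 passed in place of 2, and of the other ligands, receptors and regulators between 6 and 35 in place of 20. At an adjusted p below 0.01, 422 genes and 1 of the 7 ligands passed. Of the 5 genes most like Ppbp, 1 was shared with a prior count of 0.5 and 1 under the minimum of 3 counts in every library, chosen after seeing the data. The causes were not tested.

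Among 624 results for 45 named genes under the alternatives, 567 kept their direction and side of the threshold. The 45 include Ppbp, chosen for being higher, the genes most like it, and genes named because they passed the threshold. The 567 thus partly describe that choice and do not measure how stable calls are in general. Of the other results, 40 lost the call, 7 gained it and 10 turned direction. Of these 10, 0 were for the 8 listed ligands that the report is about. The 10 were small values of genes that did not pass the threshold. Ccl27a went to -0.036 with the replicate block and -0.043 without sgControl replicate 3, Ankrd17 to 0.017 and 0.012, Epgn to -0.079 and -0.072, and Areg to -0.0032 and -0.0056. Without sgMef2d replicate 2, Epgn was at -0.14 and Areg at -0.018. At the other end of leaving out a library, Ccl27a reached 0.27, Ankrd17 -0.13 and Areg 0.12 without sgControl replicate 1, and Epgn 0.31 without sgMef2d replicate 1.

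The labels do not say whether libraries with the same replicate number were handled together. The deviations from the group means correlated at 0.011 and -0.00092 over 12483 genes for replicates 1 and 2. With 2 sgMef2d libraries their deviations mirror each other, so these values are not separate checks and cannot settle it. A fit with the replicate block, on the 4 libraries with numbers 1 and 2, called 1258 genes and 3 of the 7 ligands, with Cxcl1 added at a log2 fold change of 0.40 (adjusted p = 0.000188, edgeR's quasi-likelihood test). Ccl2, Cxcl10 and Cxcl2 had at most 110 counts in a library, and the part of depth in their spread was not tested.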
